A study of Homo sapiens with 12 samples.

Results

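The NADPH oxidase genes NOX1, NOX4, NOX5, DUOX1 and DUOX2 and the partner genes CYBA, NOXO1, NOXA1 and RAC1 were followed in 2 human cancer cell lines in Matrigel and in flat culture. The 9 genes were found by symbol among 27968 symbols and make up 9 rows in every library. They were chosen by function around NOX1, whose change in these libraries was already known. Every level and change of the 9 genes below is therefore a description, and no p-value is given for it. Where a fit of these genes passes or misses the threshold, an adjusted p under 0.05, this serves only to count genes and to show dependence on the processing. It is not read as a test of the gene. A549 was derived from a lung cancer and MDA-MB-231 from a breast cancer, and Matrigel is a basement membrane extract that sets to a gel around the cells. There were 3 RNA-seq libraries for each of 4 groups: A549 on day 4 of 3D culture in Matrigel, A549 in 2D at about 80% confluence, MDA-MB-231 on day 4 of 3D culture in Matrigel, and MDA-MB-231 in 2D at about 80% confluence. All groups were grown in DMEM with 10% FBS and had no other treatment, so the matrix, the time and the cell density differ together between the cultures and cannot be told apart. The series asked which genes the extracellular matrix regulates in cancer cells.

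NADPH oxidases are membrane enzymes that move electrons from cytosolic NADPH across the membrane to oxygen and so make superoxide or hydrogen peroxide. NOX1 is best known from colon epithelium and works only as a complex: CYBA (p22phox) stabilises it in the membrane, NOXO1 organises the cytosolic subunits, NOXA1 activates electron flow, and GTP-bound RAC1 is needed for activity. NOX4 needs CYBA but no cytosolic subunit, whereas NOX5, DUOX1 and DUOX2 carry calcium-binding domains and do not use CYBA, and the DUOX enzymes need DUOXA maturation factors.

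Expected counts per library totalled 5609327 to 28171901 in A549 3D against 16453891 to 17717695 in A549 2D. For MDA-MB-231 they totalled 11624620 to 19838477 in 3D against 19624283 to 21227363 in 2D. The 3D libraries had shorter fragments, with means of 133.7 to 141.0 bases in A549 3D against 176.5 to 187.3 in A549 2D, and 181.4 to 188.1 in MDA-MB-231 3D against 208.3 to 216.8 in MDA-MB-231 2D. Ribosomal RNA genes took 3.59% to 16.6% of counts in A549 3D against 0.32% to 0.497% in A549 2D, and 4.75% to 7.30% in MDA-MB-231 3D against 1.49% to 1.53% in MDA-MB-231 2D. The part of these library differences in the results was not tested. A549 3D libraries also varied most, with a biological coefficient of variation of 0.180 against 0.0376 to 0.0563 in the other groups, while the fit shares 1 spread per gene. Keratin genes KRT8 and KRT18 averaged 3252 and 3860 TPM in A549 3D, but the lung-defining genes NKX2-1 and SFTPC had at most 2 counts over each A549 group. KRT8 and KRT18 averaged 572 and 551 TPM in MDA-MB-231 3D, and CDH1 averaged 12.5 TPM in A549 3D against 0.07 TPM there. KRT19 and EPCAM ran the other way. KRT19 averaged 676 TPM in MDA-MB-231 3D against 255 TPM in A549 3D, and EPCAM 33.7 TPM in MDA-MB-231 2D against 3.36 TPM in A549 2D. NKX2-1 had 61 counts over MDA-MB-231 2D. The mesenchymal genes VIM and CD44 averaged 3052 and 705 TPM in MDA-MB-231 3D, and the oestrogen receptor gene ESR1 had 3 counts there. In A549, VIM averaged 300 TPM in 3D and 642 TPM in 2D, and CD44 113 TPM in 3D and 65.6 TPM in 2D. Whether the 3 libraries per group are separate cultures is not stated in the labels, so a p-value reflects the spread among these libraries alone, which may be technical.

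NOX1 was near 0 in 3 of the 4 groups and high in A549 in Matrigel. Its libraries held 331, 253 and 1516 reads in A549 3D, against 2, 3 and 2 reads in A549 2D. On the scale used between groups, reads scaled to library size with TMM factors (CPM), this was 41.5, 49.4 and 59.8 in A549 3D against 0.111, 0.159 and 0.112 in A549 2D. Every A549 3D library stood far above every A549 2D library. The fitted log2 fold change was 8.56 ± 0.25 (SE), and it stayed between 8.38 and 8.73 when any 1 of the 12 libraries was left out. Pooled over libraries, 2100 reads against 7 gave a ratio of 427, with a 95% exact interval of 207 to 1063 that covers counting error only.

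MDA-MB-231 had 0 NOX1 reads in all 3 of its 3D libraries and 1, 1 and 3 reads in its 2D libraries. With a floor of 3 counts over the group, NOX1 was at least 884-fold higher in A549 3D than in MDA-MB-231 3D, taking its 2100 reads as exact. By the same floor it was 1.18-fold lower in MDA-MB-231 3D than in MDA-MB-231 2D. That value takes the 5 reads in 2D as exact and is no bound, so no difference is read from it. In 2D, where A549 had 7 reads and MDA-MB-231 5, the ratio was 1.76 with an interval of 0.482 to 7.05, so no line difference was detectable at this depth. The mean length of the NOX1 transcripts counted, which weights isoforms by their estimated share, was 2450, 2449 and 2458 bases in A549 3D. It was 2382 in A549 2D, where at most 3 reads per library set it.

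CYBA, the membrane partner of NOX1, was higher in Matrigel in both lines. It had 163, 132 and 133 CPM in A549 3D against 31.0, 28.7 and 31.7 CPM in A549 2D, a log2 fold change of 2.23 ± 0.10. In MDA-MB-231 it had 38.1, 41.2 and 42.0 CPM in 3D against 17.3, 16.8 and 14.1 CPM in 2D, a log2 fold change of 1.33 ± 0.11. The cultures did not overlap in either line, and the lowest A549 3D library lay above all libraries of the other groups. Levels ran from A549 3D through MDA-MB-231 3D and A549 2D to MDA-MB-231 2D, and no neighbours in that order overlapped in CPM. In TPM, which also divides by transcript length, A549 2D at 67.3 to 77.1 and MDA-MB-231 2D at 61.2 to 74.4 did overlap. The 3D over 2D rise of CYBA was smaller in log2(TPM + 1), at 1.56 in A549 and 0.84 in MDA-MB-231. The A549 2D over MDA-MB-231 2D difference, 0.92 ± 0.11 on the log2 CPM scale, fell short of the threshold in limma fits of log2 TPM.

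NOXA1, the activator of NOX1, had 2.63, 3.91 and 4.34 CPM in A549 3D against 1.44, 1.17 and 1.46 CPM in A549 2D. All 3 A549 3D libraries lay above the 2D ones, with a log2 fold change of 1.46 ± 0.27. In MDA-MB-231 it had 1.16, 0.891 and 1.81 CPM in 3D against 0.886, 0.903 and 1.22 CPM in 2D, and the cultures overlapped.

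NOXO1, the organiser, stayed low throughout. It had 1.00, 0.586 and 0.434 CPM in A549 3D against 1.11, 0.532 and 0.619 CPM in A549 2D, and 0.267, 0.315 and 0.0548 CPM in MDA-MB-231 3D against 0.0844, 0.181 and 0.0868 CPM in MDA-MB-231 2D. Matrigel and flat libraries overlapped in both lines, with log2 fold changes of −0.32 ± 0.46 in A549 and 0.79 ± 0.72 in MDA-MB-231. The A549 value ranged from −0.71 to 0.15 over fits that each left out 1 library, and no library held more than 20 NOXO1 reads. Between lines the log2 difference, A549 over MDA-MB-231, was 2.62 ± 0.54 in 2D and 1.50 ± 0.60 in 3D. The 3D difference ranged from 1.00 to 2.07 over the fits with 1 library left out, and missed the threshold without A549 3D replicate 1 or MDA-MB-231 3D replicate 3 and in log2 TPM.

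RAC1, the GTPase switch that the NOX1 complex shares with many other pathways, was abundant in every library. It had 207, 214 and 189 CPM in A549 3D against 230.2, 214 and 213 CPM in A549 2D, which overlapped. It had 330.4, 325 and 319 CPM in MDA-MB-231 3D against 272, 283 and 267 CPM in MDA-MB-231 2D, a log2 fold change of 0.24 ± 0.07 with no overlap. The direction in MDA-MB-231 depends on the scale: in TPM, RAC1 had 259, 251 and 243 in 3D against 279, 293 and 280.1 in 2D, and the log2(TPM + 1) difference was −0.18. In A549, RAC1 had 82.5, 81.6 and 81.1 TPM in 3D against 135, 125 and 131 TPM in 2D, a log2(TPM + 1) difference of −0.67. On the log2(TPM + 1) scale the median of all 15304 genes tested itself lay at −0.38 in A549 and −0.25 in MDA-MB-231, and differences on that scale, which understates changes of low genes, are read against these medians. RAC1 has close paralogs and processed pseudogenes, so its share of ambiguous reads is uncertain.

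**Figure D1:**
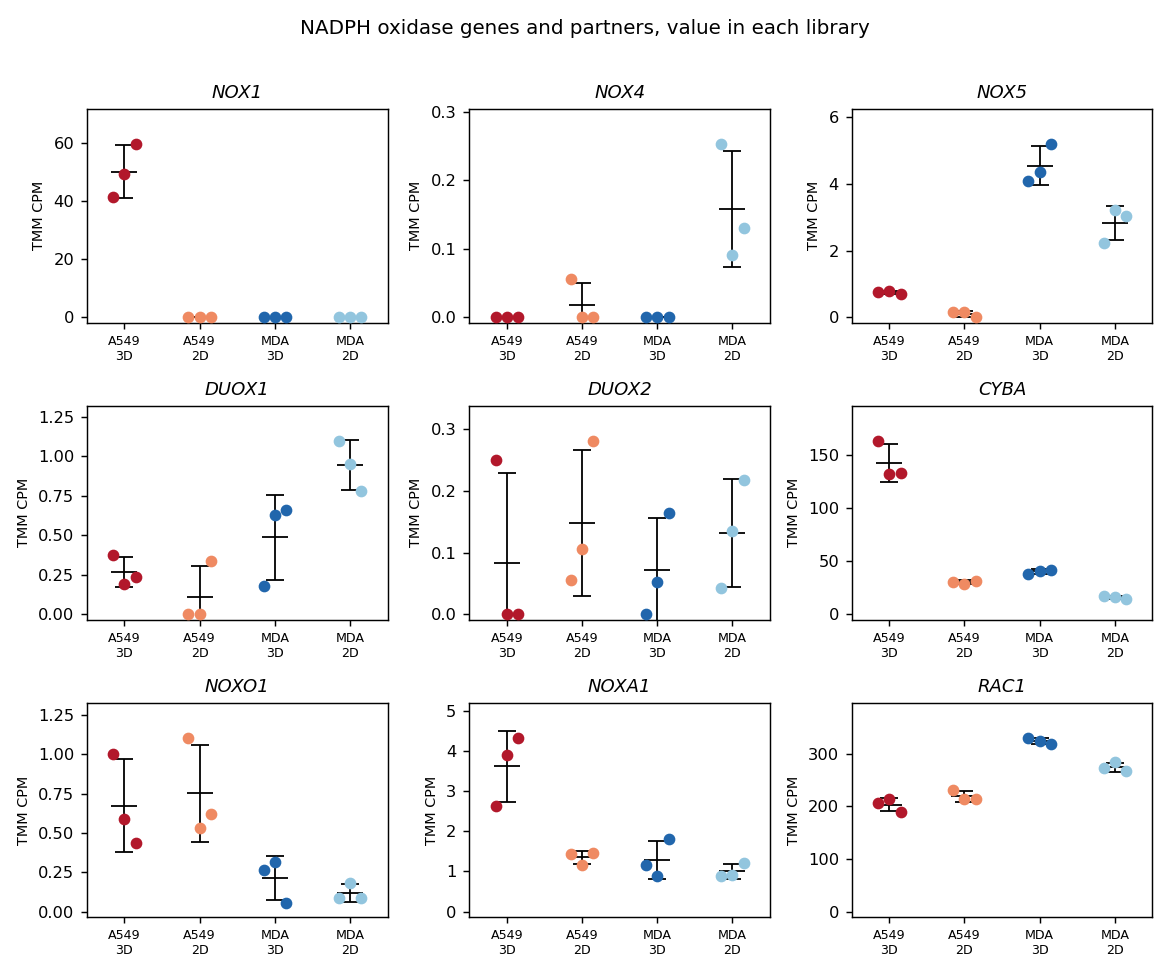
Level of each of the 9 genes in each library, in TMM-scaled CPM on a linear axis of its own per gene, with the mean (long bar) and SD (whiskers) of 3 libraries per group (MDA, MDA-MB-231). NOX1 is visible only in A549 3D, CYBA is highest there, and NOX5 and DUOX1 are highest in MDA-MB-231.

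Levels of different genes were compared in TPM, which corrects for length. In A549 3D, NOX1 was 10.0, 8.18 and 8.75 times NOXA1 in the 3 libraries, and 26.7, 54.5 and 86.9 times NOXO1. CYBA exceeded NOX1 by 15.4, 10.6 and 8.79 times there, and RAC1 at 81.1 to 82.5 TPM lay between NOX1 and CYBA. The organiser was thus the lowest of the 5 components in all 3 A549 3D libraries, at 0.59, 0.33 and 0.28 TPM. In bulk RNA, fewer cells with a transcript and less transcript per cell cannot be told apart.

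The 250 bases before the RefSeq start sites (build GRCh38.p14) of NOX1, CYBA, NOXA1 and NOXO1 are printed. These genes were chosen because they encode parts of the NOX1 complex and differed in their response in A549. NOX1 is at chrX:100874360-100874609 on the minus strand, CYBA at chr16:88651054-88651303 on the minus strand, NOXA1 at chr9:137423143-137423392 on the plus strand and NOXO1 at chr16:1981470-1981719 on the minus strand, each read 5′ to 3′ in the direction of its gene. Capitals mark a match to 1 of 5 motifs searched on both strands: TGANTCA for AP-1, TTCNNNGAA for STAT, TGACNNNGC for the antioxidant response element, AGATAA for GATA factors and TATAAA for the TATA box.

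NOX1: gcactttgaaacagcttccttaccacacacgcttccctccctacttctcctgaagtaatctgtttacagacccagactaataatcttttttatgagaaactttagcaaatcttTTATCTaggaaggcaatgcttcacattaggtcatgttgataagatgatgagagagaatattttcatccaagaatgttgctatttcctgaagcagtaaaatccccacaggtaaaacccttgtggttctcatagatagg

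CYBA: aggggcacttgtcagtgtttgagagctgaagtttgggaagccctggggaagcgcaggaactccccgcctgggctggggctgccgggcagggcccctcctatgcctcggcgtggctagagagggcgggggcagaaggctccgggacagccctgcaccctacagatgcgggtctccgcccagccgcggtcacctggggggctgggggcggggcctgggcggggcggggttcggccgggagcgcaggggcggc

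NOXA1: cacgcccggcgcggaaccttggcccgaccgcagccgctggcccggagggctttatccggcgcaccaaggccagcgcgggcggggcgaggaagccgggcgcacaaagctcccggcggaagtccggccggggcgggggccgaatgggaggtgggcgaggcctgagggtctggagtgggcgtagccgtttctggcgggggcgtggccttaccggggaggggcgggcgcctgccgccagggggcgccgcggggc

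NOXO1: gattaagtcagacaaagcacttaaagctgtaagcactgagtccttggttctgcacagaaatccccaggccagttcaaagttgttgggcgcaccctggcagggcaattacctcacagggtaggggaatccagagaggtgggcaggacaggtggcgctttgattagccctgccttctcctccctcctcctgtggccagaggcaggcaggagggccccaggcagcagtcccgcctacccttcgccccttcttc

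The NOX1 window is poor in CpG, with 1 CpG and 38.4% G+C, and the NOXO1 window holds 4 CpG and 58.4% G+C. The CYBA and NOXA1 windows are rich, with 18 CpG and 73.6% G+C in CYBA and 34 CpG and 78.4% G+C in NOXA1. Over all 35116 windows of this length the median was 11 CpG (quartiles 3 and 23) and 58.0% G+C (quartiles 46.4 and 68.0). NOX1 held 1 GATA match, a motif found in 9.17% of all windows, and the other 3 windows held no match to any of the 5. The share of all windows with a match was 6.57% for AP-1, 6.57% for STAT, 10.9% for the antioxidant response element and 10.7% for the TATA box. A match is a description of letters, and no match says only that these letters are not in this window. Windows were listed for 8 of the 9 genes.

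NOX5, the calcium-activated oxidase, was the main catalytic gene of MDA-MB-231. It had 4.09, 4.35 and 5.20 CPM in MDA-MB-231 3D against 2.24, 3.21 and 3.04 CPM in MDA-MB-231 2D, a log2 fold change of 0.70 ± 0.22. Those libraries did not overlap in CPM, but in TPM they did, at 2.73, 2.86 and 3.36 in 3D against 1.95, 2.81 and 2.70 in 2D. The MDA-MB-231 difference was 0.198 in log2(TPM + 1) and 0.265 in log2(TPM + 0.1). It was 0.55 without MDA-MB-231 2D replicate 1 and 0.58 without MDA-MB-231 3D replicate 3. In A549, NOX5 had 6, 4 and 18 reads in 3D against 3, 3 and 0 in 2D, and 0.752, 0.781 and 0.710 CPM against 0.166, 0.159 and 0 CPM. The A549 cultures did not overlap, with a log2 fold change of 2.66 ± 0.55 that rests on 6 reads in 2D and was 2.11 without A549 2D replicate 3. NOX5 was lower in A549 than in MDA-MB-231 in both cultures, by a log2 difference of −2.63 ± 0.30 in 3D and −4.60 ± 0.40 in 2D.

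DUOX1, a peroxide-producing oxidase of airway and thyroid epithelium, was a low-count gene of MDA-MB-231. It had 0.178, 0.629 and 0.657 CPM in MDA-MB-231 3D against 1.10, 0.948 and 0.781 CPM in MDA-MB-231 2D. All 3 Matrigel libraries lay below the flat ones, with a log2 fold change of −0.83 ± 0.49 that rests on 26 reads in 3D. The log2(TPM + 1) and log2(TPM + 0.1) differences were −0.271 and −1.003, and the fit to the MDA-MB-231 libraries alone gave −0.819. In A549 DUOX1 had 3, 1 and 6 reads in 3D against 0, 0 and 6 in 2D. Its log2 fold change there of 1.20 ± 0.93 became 5.23 without A549 2D replicate 3.

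DUOX2 had 2, 0 and 0 reads in A549 3D against 1, 2 and 5 in A549 2D, and 0, 1 and 3 reads in MDA-MB-231 3D against 1, 3 and 5 in MDA-MB-231 2D. Both pairs of cultures overlapped. DUOX1 and DUOX2 are close relatives, and in 2 of the 12 libraries the deposited expected counts divided reads between them, as 25.97 and 1.03 in MDA-MB-231 2D replicate 1 and as 17.8 and 5.2 in replicate 3. Their split is therefore uncertain.

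NOX4, the constitutively active oxidase of kidney and fibroblasts, had 0 reads in every A549 3D library against 1, 0 and 0 in A549 2D. It had 0 reads in every MDA-MB-231 3D library against 6, 2 and 3 in MDA-MB-231 2D. With a floor of 3 counts over the group, MDA-MB-231 3D was 2.59-fold lower than MDA-MB-231 2D. That value takes the 2D reads as exact and is no bound. NOX4 and DUOX2 did not pass the low-count filter, and 7 of the 9 genes did.

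The catalytic genes can be summed in TPM to show which oxidase each group transcribed, with CYBB and NOX3 added to the 5 described so that all 7 of the family are counted. The 7 genes summed to 16.2, 18.3 and 24.7 TPM in A549 3D against 0.22 to 0.28 TPM in A549 2D. NOX1 made up 97.5% to 98.5% of the sum in A549 3D. Its share in A549 2D was 25.0% to 37.5% of a sum too small for the shares to be read as an order.

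In MDA-MB-231 the sum was 3.12 to 3.99 TPM in 3D against 3.88 to 4.57 TPM in 2D, so it overlapped while its make-up did not. NOX5 made up 79.4% to 87.5% in 3D against 50.3% to 62.3% in 2D. CYBB (NOX2, the phagocyte oxidase) made up 9.77% to 14.7% in 3D against 25.7% to 33.0% in 2D, and DUOX1 1.92% to 5.56% in 3D against 7.22% to 11.6% in 2D.

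**Figure D2:**
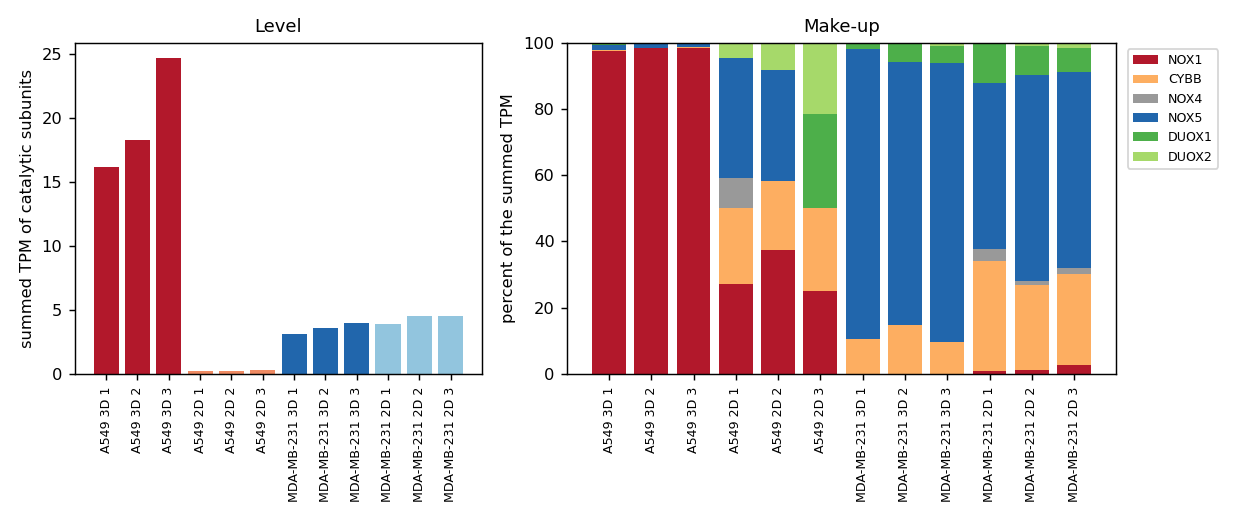
Left, summed TPM of the 7 catalytic subunit genes in each library. Right, the percent of that sum from each gene (NOX3 is at 0 in every library and not drawn). A549 3D libraries are 97.5% to 98.5% NOX1, and MDA-MB-231 libraries are mainly NOX5, with more CYBB in 2D.

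Set against all genes, many of which also passed, the calls of the 9 genes were as follows. A call means an adjusted p under 0.05 in the edgeR fit across all 15304 genes, here used only to count. In A549 3D against 2D, 4 of 7 were higher (NOX1, NOX5, NOXA1 and CYBA) and 0 lower, where 34.1% of all genes were higher and 31.5% lower. In MDA-MB-231 3D against 2D, 3 of 7 were higher (NOX5, CYBA and RAC1) and 0 lower, against 33.5% higher and 34.2% lower among all genes. On the log2(TPM + 1) scale the split was 4 higher and 1 lower in A549, where 15.0% of all genes were higher and 56.4% lower on that scale. In MDA-MB-231 it was 1 higher and 2 lower, against 16.5% higher and 48.9% lower among all genes. NOX1 in MDA-MB-231, at 0 reads in 3D, was also called lower in 4 of 20 alternatives, namely log2(TPM + 0.1), the replicate block, and the fits without A549 3D replicate 1 or 3. With no count filter NOX4 was called lower there. The NOX5 call in MDA-MB-231 was lost in 4 of 21 alternatives. These were both log2 TPM fits and those without MDA-MB-231 2D replicate 1 or MDA-MB-231 3D replicate 3. DUOX1 in MDA-MB-231 was called lower in 3 of 20 alternatives, both log2 TPM fits and the fit to the MDA-MB-231 libraries alone. The median log2 fold change of the 7 genes was 1.46 in A549 and 0.37 in MDA-MB-231, beside 0.03 and 0.00 over all genes. These contrasts were in view when the genes were chosen, so nothing is read from the counts.

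The 2 lines' changes, A549 minus MDA-MB-231, differed by the same threshold in 5 of the 7 genes, 4 higher (NOX1, NOX5, NOXA1 and CYBA) and 1 lower (RAC1), where 29.3% of all genes were higher and 26.7% lower. Between the lines in 2D, 2 of the 7 were higher in A549 (CYBA and NOXO1) and 3 lower (NOX5, DUOX1 and RAC1), against 42.8% and 38.8% of all genes. Between the lines in 3D, 4 were higher in A549 (NOX1, NOXA1, NOXO1 and CYBA) and 2 lower (NOX5 and RAC1), against 43.9% and 39.2%. The 2D, 3D and change comparisons share libraries.

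**Figure D3:**
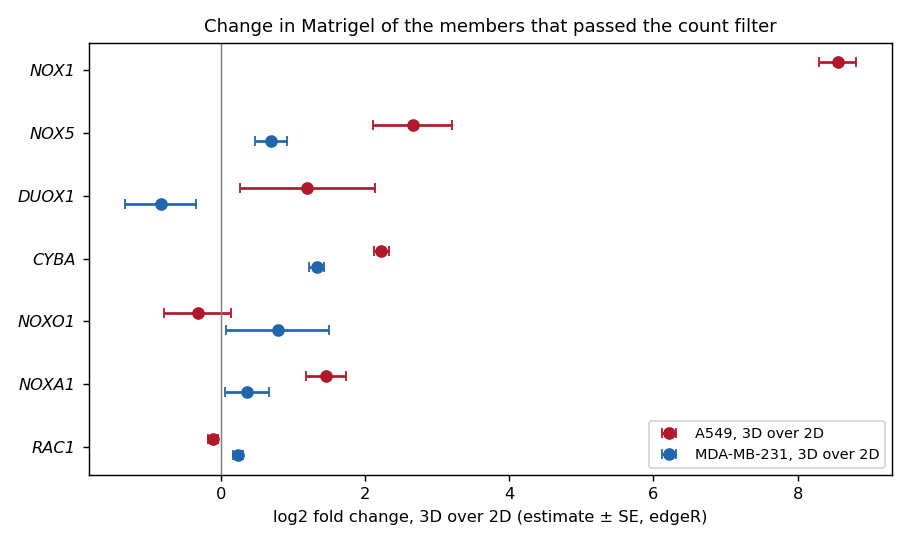
Log2 fold change of 3D over 2D with its SE for the genes that passed the count filter, A549 above MDA-MB-231 for each gene. NOX1 is drawn for A549 alone, at 8.56, because MDA-MB-231 3D had 0 reads.

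The other subunits of these oxidases were a list of 10 genes, of which 6 could be tested. This list and the lists below were also chosen with earlier results of these data known, so their adjusted p-values are descriptive. In A549, 1 rose (CYBC1); in MDA-MB-231, 4 rose (RAC2, RAC3, CYBC1 and HVCN1) and 2 fell (CYBB and DUOXA1). Among all genes 34.1% rose and 31.5% fell in A549, and 33.5% rose and 34.2% fell in MDA-MB-231. On the log2(TPM + 1) scale 0 of the subunits rose and 3 fell in A549, and 2 rose and 2 fell in MDA-MB-231, where all genes split as 15.0% and 56.4% in A549 and as 16.5% and 48.9% in MDA-MB-231. NOX3 and DUOXA2 had 0 reads in all libraries, NCF1 had 1 read in 1 A549 2D library, and NCF4 had at most 5 reads over any group. NCF1 has near-identical pseudogenes, so its reads are uncertain.

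CYBB, the catalytic subunit of the phagocyte oxidase, fell in MDA-MB-231, at 0.800, 1.31 and 0.986 CPM in 3D against 2.41, 2.17 and 2.30 CPM in 2D (log2 fold change −1.11 ± 0.25, edgeR adjusted p = 0.00115). DUOXA1, the maturation factor of DUOX1, fell more, with 0, 2 and 2 reads in MDA-MB-231 3D against 31, 42 and 40 in 2D (log2 fold change −4.21 ± 0.53, edgeR adjusted p = 4.07e-06). DUOX1 and DUOXA1 lie next to each other in the genome, and the strand setting of the counting is not given in the sources used here, so reads between them are uncertain. In A549 both CYBB and DUOXA1 had at most 7 reads in any library, and their direction there changed without A549 3D replicate 3.

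RAC2, the blood-cell relative of RAC1, was a second Rac gene of MDA-MB-231 and not of A549. It had 234, 249 and 252 CPM in MDA-MB-231 3D against 114, 126 and 97.6 CPM in MDA-MB-231 2D, for a log2 change of 1.13 ± 0.10 (edgeR adjusted p = 9.41e-08). A549 had 3 RAC2 reads over its 3D libraries and 2 over its 2D libraries, so that A549 over MDA-MB-231 was 0.000316 in 3D (95% exact interval 6.51e-05 to 0.000923) and 0.000326 in 2D (3.94e-05 to 0.00118). In TPM, RAC1 over RAC2 was 0.870, 0.801 and 0.777 in MDA-MB-231 3D against 1.46, 1.37 and 1.67 in MDA-MB-231 2D, with RAC2 the higher of the pair in 3D and RAC1 in 2D.

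RAC3, a Rac gene of brain and other tissues, rose in MDA-MB-231, at 17.1 ± 1.24 CPM in 3D against 10.8 ± 2.25 CPM in 2D (SD, n = 3 each; log2 fold change 0.67 ± 0.14, edgeR adjusted p = 0.000445), and this missed the threshold in both log2 TPM fits. In A549 RAC3 had 7.78 ± 1.51 CPM in 3D against 10.1 ± 0.583 CPM in 2D (−0.36 ± 0.16, edgeR adjusted p = 0.0628). The A549 difference was −0.91 in log2(TPM + 1) and −0.99 in log2(TPM + 0.1), past the threshold in both. RAC3 also passed in A549, at −0.36 to −0.48, in 5 other fits: with structural RNA genes left out (edgeR adjusted p = 0.0469), with no count filter (0.0385), and without A549 3D replicate 1 (0.0283) or MDA-MB-231 2D replicate 2 (0.0331) or 3 (0.0342). CYBC1, a chaperone for assembly of CYBB with CYBA, rose in MDA-MB-231 at 34.1 ± 1.80 CPM in 3D against 16.1 ± 0.414 CPM in 2D (1.08 ± 0.11, edgeR adjusted p = 4.42e-07). In A549 CYBC1 had 51.1 ± 9.62 CPM in 3D against 42.1 ± 0.994 CPM in 2D (0.31 ± 0.11, edgeR adjusted p = 0.0188). The A549 rise turned to −0.33 on the log2(TPM + 1) scale, and its adjusted p was 0.171 without A549 3D replicate 3, 0.0565 without A549 2D replicate 1 and 0.0743 without A549 2D replicate 2. HVCN1, the proton channel that balances oxidase charge, had 4.80 ± 0.569 CPM in MDA-MB-231 3D against 3.59 ± 0.364 CPM in 2D (0.43 ± 0.17, edgeR adjusted p = 0.0408), a call that turned to −0.0118 in log2(TPM + 1). It was also lost with DESeq2 (adjusted p = 0.0688), with no count filter (edgeR adjusted p = 0.0712), with the replicate block (edgeR adjusted p = 0.0534), without any 1 of the MDA-MB-231 2D libraries, and without MDA-MB-231 3D replicate 2 or 3, A549 3D replicate 1 or A549 2D replicate 3.

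**Figure D4:**
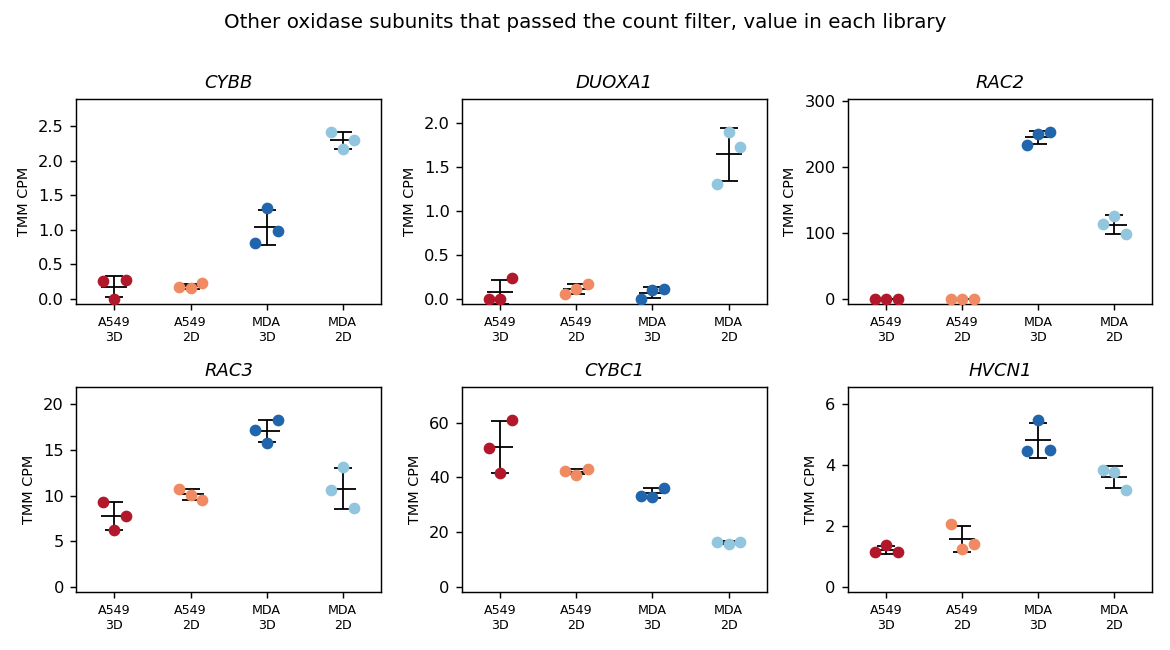
Level of the 6 other subunit genes that passed the count filter in each library, in TMM-scaled CPM on linear axes, with mean (long bar) and SD (whiskers) of 3 libraries per group (MDA, MDA-MB-231). CYBB and DUOXA1 are lower in 3D in MDA-MB-231, and RAC2 is present in MDA-MB-231 and near 0 in A549.

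Genes that act around the oxidases were taken as 7 further lists. With the other subunits they held 80 genes, 63 of them tested, of which 28 rose and 16 fell in A549 and 34 rose and 13 fell in MDA-MB-231. All genes, at 34.1% and 31.5% in A549 and at 33.5% and 34.2% in MDA-MB-231, were called about as often in all, so these totals are not a result about the lists. Their median log2 fold change was 0.18 in A549 and 0.41 in MDA-MB-231, beside 0.03 and 0.00 over all genes. On the log2(TPM + 1) scale the counts were 17 and 32 in A549 and 19 and 23 in MDA-MB-231, a shift that the whole table shared, at 15.0% higher and 56.4% lower in A549 and 16.5% and 48.9% in MDA-MB-231. The changes of the 2 lines differed in 38 of the 63 genes, 16 higher and 22 lower in A549 minus MDA-MB-231, beside 29.3% higher and 26.7% lower among all genes. Each list's log2(TPM + 1) counts below are read against the shares of all genes on that scale. Genes named from the 7 lists were picked for the smallest p in a line, so their adjusted p-values are no independent evidence.

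Adaptors and kinases of the oxidases rose in 6 of 11 tested and fell in 3 in A549 (all genes, 34.1% and 31.5%). In MDA-MB-231 they rose in 8 and fell in 2 (all genes, 33.5% and 34.2%). In log2(TPM + 1) the counts were 2 and 5 in A549, and 5 and 3 in MDA-MB-231. SRC, the tyrosine kinase that acts on the NOX1 complex, had 295 ± 40.6 CPM in A549 3D against 85.4 ± 3.97 CPM in A549 2D (log2 fold change 1.79 ± 0.09, edgeR adjusted p = 1.86e-10). SH3PXD2A (TKS5), an adaptor that can take the place of NOXO1, rose in both lines, by 1.62 ± 0.11 in A549 (edgeR adjusted p = 3.75e-09) and 0.94 ± 0.09 in MDA-MB-231 (edgeR adjusted p = 1.52e-07). It had 26.1 ± 3.15 CPM in A549 3D against 8.58 ± 0.924 CPM in A549 2D, and 119 ± 4.87 CPM in MDA-MB-231 3D against 62.1 ± 2.90 CPM in MDA-MB-231 2D. PRKCE, a protein kinase C gene, fell in A549 by 1.39 on the log2 scale, at 8.36 ± 1.12 CPM in 3D against 22.8 ± 0.952 CPM in 2D (edgeR adjusted p = 1.27e-08). P4HB, a protein disulfide isomerase that binds oxidase subunits, rose in MDA-MB-231 at 1764 ± 10.5 CPM in 3D against 649 ± 33.3 CPM in 2D (1.44 ± 0.08, edgeR adjusted p = 1.55e-09). PRKCA rose there by 0.73 ± 0.07 (edgeR adjusted p = 3.85e-07).

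Rac exchange factors, which load Rac with GTP, rose in 5 of 14 and fell in 7 in A549 (all genes, 34.1% and 31.5%). In MDA-MB-231 they rose in 6 and fell in 1 (all genes, 33.5% and 34.2%). In log2(TPM + 1) the counts were 2 and 9 in A549, and 1 and 5 in MDA-MB-231. DOCK2, an exchange factor of blood cells, had 0.134 ± 0.138 CPM in A549 3D against 11.9 ± 1.29 CPM in A549 2D (log2 fold change −5.80 ± 0.26, edgeR adjusted p = 3.69e-11). ELMO1, which partners DOCK proteins, rose in both lines, at 16.4 ± 4.12 CPM in A549 3D against 1.99 ± 0.303 CPM in A549 2D (3.06 ± 0.18, edgeR adjusted p = 1.13e-09) and 3.17 ± 0.253 CPM in MDA-MB-231 3D against 1.14 ± 0.126 CPM in MDA-MB-231 2D (1.48 ± 0.22, edgeR adjusted p = 2.58e-05). TRIO fell in A549 by 0.99 on the log2 scale (edgeR adjusted p = 1.66e-08). TIAM2 fell in MDA-MB-231 by 0.97 (edgeR adjusted p = 0.00017), and ELMO2 rose there by 0.46 ± 0.10 (edgeR adjusted p = 0.000455), a call lost in log2 TPM.

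Rac inhibitors rose in 2 of 8 and fell in 3 in A549 (all genes, 34.1% and 31.5%). In MDA-MB-231 they rose in 3 and fell in 3 (all genes, 33.5% and 34.2%). The list's counts in log2(TPM + 1) were 1 and 6 in A549, and 1 and 3 in MDA-MB-231. ABR, a GTPase-activating protein for Rac, fell in A549, at 107 ± 12.6 CPM in 3D against 209.7 ± 11.5 CPM in 2D (−0.97 ± 0.09, edgeR adjusted p = 8.7e-08). In MDA-MB-231 ABR rose by 0.56 ± 0.08 (edgeR adjusted p = 2.21e-05), a call lost in log2 TPM. CHN1, another such protein, fell in A549 by 0.89 (edgeR adjusted p = 7.01e-07) and in MDA-MB-231 by 0.70 (edgeR adjusted p = 6.63e-06). RACGAP1, which acts in cell division, fell in A549 by 0.96 (edgeR adjusted p = 4.05e-07). ARHGDIA, which holds Rac in the cytosol, rose in MDA-MB-231 at 677 ± 42.1 CPM in 3D against 274 ± 33.1 CPM in 2D (1.31 ± 0.16, edgeR adjusted p = 3.26e-06).

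Genes that remove superoxide and peroxide, the products of the oxidases, rose in 8 of 15 and fell in 2 in A549 (all genes, 34.1% and 31.5%). In MDA-MB-231 they rose in 10 and fell in 2 (all genes, 33.5% and 34.2%). In log2(TPM + 1) 6 rose and 7 fell in A549, and 7 rose and 4 fell in MDA-MB-231, while with RLE scaling 11 rose and 0 fell in A549. GPX2, an epithelial glutathione peroxidase, had 2391 ± 418 CPM in A549 3D against 155 ± 10.6 CPM in A549 2D (3.94 ± 0.14, edgeR adjusted p = 2.34e-12). PRDX5, a peroxiredoxin, rose in A549 by 1.19 ± 0.07 (edgeR adjusted p = 1.11e-09) and in MDA-MB-231 by 1.15 ± 0.07 (edgeR adjusted p = 3.14e-09). CAT, the catalase gene, rose in A549 at 126 ± 11.9 CPM in 3D against 57.3 ± 0.673 CPM in 2D (1.14 ± 0.08, edgeR adjusted p = 5.19e-09). In MDA-MB-231 the lipid peroxidase GPX4 rose by 1.24 ± 0.09 (edgeR adjusted p = 1.26e-08) and PRDX2 by 1.21 ± 0.10 (edgeR adjusted p = 3.25e-08). Of 6 heme peroxidases only PXDN, a matrix peroxidase that crosslinks collagen IV, could be tested. It fell in A549, at 7.49 ± 0.905 CPM in 3D against 19.1 ± 1.09 CPM in 2D (−1.29 ± 0.11, edgeR adjusted p = 4.71e-08). In MDA-MB-231 it had 502 ± 29.7 CPM in 3D against 474 ± 24.5 CPM in 2D (0.09 ± 0.08, edgeR adjusted p = 0.35; −0.32 in log2(TPM + 1)).

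The cytosolic enzymes that supply NADPH, the electron donor of all oxidases, rose in 4 of 4 tested in A549, where 34.1% of all genes rose. In MDA-MB-231 they rose in 2 and fell in 2 (all genes, 33.5% and 34.2%). The list's counts were the same in log2(TPM + 1). PGD, of the pentose phosphate pathway, rose in both lines, at 2141 ± 203 CPM in A549 3D against 1055 ± 36.2 CPM in A549 2D (1.02 ± 0.08, edgeR adjusted p = 2.32e-08) and 330.3 ± 12.3 CPM in MDA-MB-231 3D against 189 ± 6.53 CPM in MDA-MB-231 2D (0.81 ± 0.08, edgeR adjusted p = 3.56e-07). The malic enzyme ME1 rose in A549 by 1.29 ± 0.10 (edgeR adjusted p = 2.74e-08) and the isocitrate dehydrogenase IDH1 by 1.15 ± 0.07 (edgeR adjusted p = 2.53e-09). In MDA-MB-231 ME1 fell, at 14.2 ± 2.57 CPM in 3D against 18.6 ± 0.615 CPM in 2D (−0.41 ± 0.12, edgeR adjusted p = 0.00634), a call lost without MDA-MB-231 3D replicate 3. PGLS, also of the pentose phosphate pathway, rose there, at 119.5 ± 3.43 CPM in 3D against 33.8 ± 2.93 CPM in 2D (1.82 ± 0.11, edgeR adjusted p = 2.35e-09).

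Aquaporins that can pass hydrogen peroxide rose in 2 of 4 tested and fell in 0 in A549 (all genes, 34.1% and 31.5%). In MDA-MB-231 they rose in 1 and fell in 1 (all genes, 33.5% and 34.2%). In log2(TPM + 1) the counts were 2 and 1 in A549, and 1 and 3 in MDA-MB-231. AQP3 had 240.5 ± 26.0 CPM in A549 3D against 5.42 ± 0.331 CPM in A549 2D (5.48 ± 0.13, edgeR adjusted p = 6.6e-14). In MDA-MB-231 it had 8.13 ± 1.29 CPM in 3D against 9.89 ± 1.05 CPM in 2D (−0.26 ± 0.13, edgeR adjusted p = 0.0875; −0.65 in log2(TPM + 1), past the threshold there). It also passed without MDA-MB-231 2D replicate 3 (−0.35) or 3D replicate 3 (−0.37). AQP1 rose in A549 by 2.36 ± 0.44 (edgeR adjusted p = 0.000195) and in MDA-MB-231 by 1.38 ± 0.30 (edgeR adjusted p = 0.000645), at no more than 58 reads over any group. AQP5 fell in MDA-MB-231, with 4 reads over the 3D group against 81 over the 2D group (−3.73 ± 0.49, edgeR adjusted p = 1.34e-05).

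**Figure D5:**
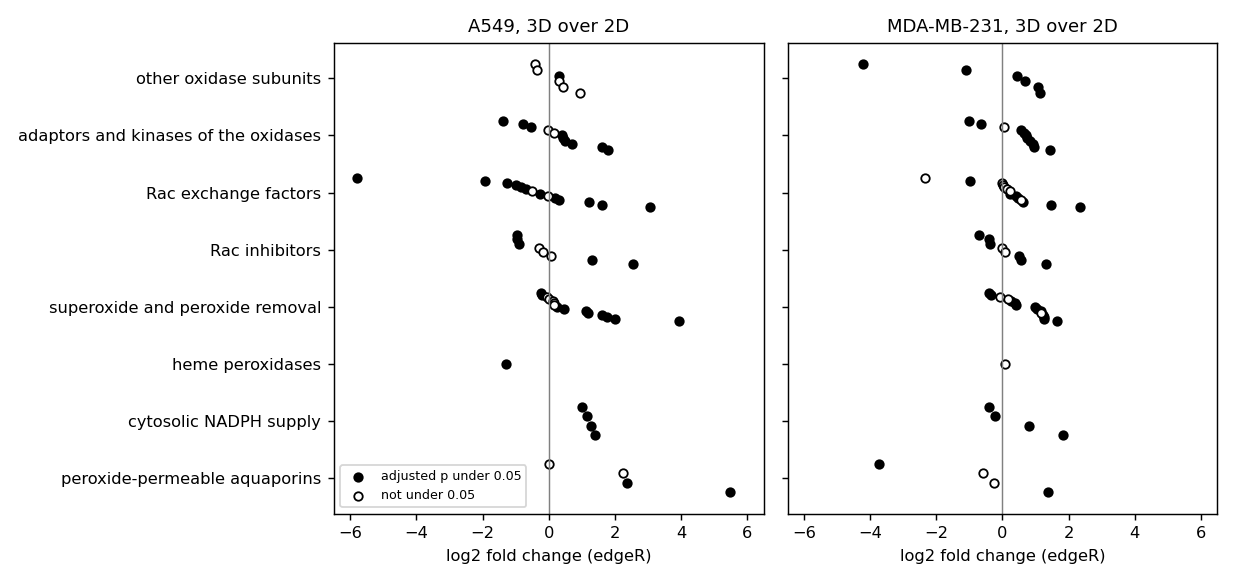
EdgeR log2 fold change of 3D over 2D for every tested gene of the 8 lists around the oxidases, A549 at left and MDA-MB-231 at right, with filled points for an adjusted p under 0.05. All 4 genes shown for NADPH supply lie above 0 in A549, and the Rac exchange factors spread on both sides, with DOCK2 at −5.80.

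The genes whose pattern over the 4 groups was most like that of the most variable members were found by the root mean square distance between centred log2 CPM group means, over 4 groups and 11726 candidates, as a description. Nearest to NOX1 were S100P (0.905), RAB37 (1.07), RARRES1 (1.25) and SLPI (1.26), where the median candidate was at 3.61. S100P averaged 113 CPM in A549 3D against 1.85 CPM in A549 2D, and 0.415 CPM in MDA-MB-231 3D against 0.192 CPM in its flat culture. Nearest to NOX5 were TPP1 (0.0879), LAMB3 (0.111), GBP2 (0.121) and VAMP2 (0.150), with a median of 1.81. Nearest to CYBA were TMEM141 (0.118), VWA1 (0.156), CXCL16 (0.156) and SELENOM (0.169), with a median of 1.29. The group means of NOX1 spanned 8.77 log2 units, those of NOX5 4.49 and those of CYBA 3.14.

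Since CYBB, CYBA, RAC2 and DOCK2 are known from leukocytes, 8 leukocyte markers were read beside them. In A549, 3 of 6 tested rose and 0 fell, where 34.1% of all genes rose and 31.5% fell. The 8 markers summed to 17.1 to 30.1 TPM in A549 3D against 5.71 to 6.53 TPM in A549 2D. In MDA-MB-231, 5 of 6 rose and 0 fell, where 33.5% of all genes rose and 34.2% fell. The sum there was 374 to 396 TPM in 3D against 236 to 265 TPM in 2D. The defining gene PTPRC (CD45) had 1 read over A549 3D against 1 over A549 2D, and 3 over MDA-MB-231 3D against 36 over MDA-MB-231 2D, and SPI1 had at most 1 read over any group. CD14 averaged 12.4 TPM in A549 3D against 1.88 TPM in A549 2D, and 19.8 TPM in MDA-MB-231 3D against 2.90 TPM in MDA-MB-231 2D. CD68 averaged 10.2 TPM in A549 3D against 2.89 TPM in A549 2D, and 240 TPM in MDA-MB-231 3D against 134 TPM in MDA-MB-231 2D. LAPTM5 averaged 121 TPM in MDA-MB-231 3D against 108 TPM in MDA-MB-231 2D. Endothelial markers summed to at most 1.92 TPM and fibroblast markers to at most 2.71 TPM in any library, and DCN had 0 reads in every library.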

How the data were processed

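RNA was measured by sequencing in 12 libraries, 3 for each of 4 groups. Per the labels' protocols, TRIZOL was used for total RNA, and a stranded kit with ribosomal RNA depletion for the libraries. The authors deposited expected counts and TPM per gene symbol from RSEM, which divides reads shared between genes, per the submitters' processing notes, where the build is hg19. Not given in the sources used here are the strand setting, the annotation, the aligner and RSEM's version. Mean transcript length was also deposited beside the counts.

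Expected counts were rounded. Genes passing filterByExpr (15304) were scaled by TMM and fitted with 4 group means over all 12 libraries by the quasi-likelihood test of edgeR (4.0.16, in R 4.3.3), two-sided, with Benjamini-Hochberg adjustment over all genes tested and a threshold of 0.05. SE is the log2 fold change divided by the root of F. Levels between groups are TMM-scaled CPM, and levels between genes are TPM. For a group with 0 counts a floor of 3 was used. Intervals cover counting error only. A floor covers it only for the group with 0 counts and takes the reads of the other group as exact. The 9 genes and the 8 lists around them were chosen with earlier results of these data known.

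Named genes were all 9 members, every other subunit and, in each other list, up to 3 genes with the smallest p in each line. 2 listed genes are not reported here and were left out of the lists' counts. 1 older symbol was matched, C17orf62 to CYBC1. Promoter windows came from RefSeq (GRCh38.p14), cut to the 250 bases before the start, with motifs searched on both strands. The fit was tested on simulated counts. Alternatives were RLE scaling, DESeq2 (1.42.0), no count filter, a minimum CPM of 1 in 3 libraries, limma (3.58.1) on log2(TPM + 1) and log2(TPM + 0.1), structural RNA genes left out, the groups compared alone, the replicate number as a block, and each library left out. No 2 libraries of a group agreed within sampling noise (chi-square per degree of freedom 2.61 to 151).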

Additional observations from a re-analysis of the deposited data

Results flagged for a closer look

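Each value here is a difference of 3D over 2D log2 fold changes, A549 minus MDA-MB-231, whose own edgeR test passed an adjusted p of 0.05. That held for 28 of the 40 genes named and tested. Among all genes 29.3% were higher and 26.7% lower, but most named genes were picked for the smallest p in a line, so nothing is read from the count. For the 9 genes chosen with these contrasts known, the values are descriptions. They were 12.04 for NOX1, a fitted value that depends on the prior count because MDA-MB-231 3D had 0 reads and is no bound, 1.97 for NOX5, 1.09 for NOXA1, 0.89 for CYBA and −0.35 for RAC1. The NOXA1 difference missed the threshold in 8 of 20 alternatives, among them the fits without A549 2D replicate 1 or 2, A549 3D replicate 3, MDA-MB-231 2D replicate 3 or MDA-MB-231 3D replicate 1 or 2. The NOX5 difference missed it on the log2(TPM + 1) scale.

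Among the other subunits the difference was 4.65 for DUOXA1, whose A549 libraries held at most 6 reads and whose difference missed the threshold without A549 3D replicate 3. It was −1.03 for RAC3, −0.77 for CYBC1 and −0.83 for HVCN1. The HVCN1 difference missed it in 7 of 20 alternatives, namely DESeq2, the replicate block (edgeR adjusted p = 0.0604), and the fits without A549 2D replicate 1, A549 3D replicate 1 or 3, MDA-MB-231 2D replicate 3 or MDA-MB-231 3D replicate 2.

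Among adaptors and kinases it was 0.95 for SRC, 0.68 for SH3PXD2A, −0.75 for PRKCE and −1.02 for P4HB. Among Rac regulators it was −6.21 for DOCK2, 1.58 for ELMO1, −1.13 for TRIO, −0.96 for TIAM2, −1.52 for ABR, −0.56 for RACGAP1 and −1.48 for ARHGDIA. The SH3PXD2A difference missed the threshold on the log2(TPM + 1) scale and the TIAM2 difference in both log2 TPM fits, where it was 0.20 in log2(TPM + 1). ABR changed in opposite directions in the lines, at −0.97 in A549 and 0.56 in MDA-MB-231.

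Among enzymes it was 0.97 for CAT, −0.78 for GPX4, −1.38 for PXDN, 1.39 for IDH1, 1.71 for ME1 and −0.43 for PGLS. The PGLS difference missed the threshold in 7 of 20 alternatives, each leaving out 1 library: A549 2D replicate 1 or 3, A549 3D replicate 3, MDA-MB-231 2D replicate 2 or 3, or MDA-MB-231 3D replicate 1 or 3. Among aquaporins it was 5.74 for AQP3 and 5.96 for AQP5, where A549 had 1 read in 3D and 0 in 2D. The AQP5 value is fitted, depends on the prior count and is no bound. It missed the threshold in 7 of 20 alternatives, namely no count filter, the replicate block (edgeR adjusted p = 0.0535), and the fits without any 1 of the A549 2D libraries, A549 3D replicate 1 or MDA-MB-231 3D replicate 2.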

How the results depend on the processing

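The counts of genes called in either direction, over all genes and over the 8 lists pooled, stayed within 1.5 times of the reported count in the 208 recomputations made. Counts in 1 direction did not. In log2(TPM + 1), 2290 genes were higher and 8626 lower in A549 (5222 and 4824 reported), and 2532 and 7491 in MDA-MB-231 (5121 and 5235 reported). Single lists moved too. On that scale 3 other subunits were called in A549 (1 reported), 4 aquaporins and the 1 heme peroxidase tested in MDA-MB-231 (2 and 0 reported), and 9 removal genes for the difference between the lines' changes (5 reported). With only the A549 groups fitted, 6 removal genes (10 reported) and 1 aquaporin (2 reported) were called. With no count filter, 2 other subunits and 2 heme peroxidases were called in A549 (1 each reported), and 2 other subunits with structural RNA genes left out. Of the 9 genes, NOXA1 in MDA-MB-231 and NOXO1 in A549, neither past the threshold, turned direction. So did RAC1 in MDA-MB-231, which was past the threshold at 0.24 and was at −0.18 in both log2 TPM fits. NOXA1, at 0.37, was at −0.0547 in log2(TPM + 1), −0.0987 in log2(TPM + 0.1) and −0.00234 without MDA-MB-231 3D replicate 3, and NOXO1, at −0.32, was at 0.0616 without A549 2D replicate 1 and 0.15 without A549 3D replicate 3. The direction also turned for genes outside the 9, among them the following. In log2(TPM + 1) and log2(TPM + 0.1), the 3D over 2D difference was −0.0118 and −0.0141 for HVCN1 and −0.32 and −0.32 for PXDN in MDA-MB-231. In A549 it was −0.33 and −0.34 for CYBC1, −0.028 and −0.22 for CYBB, −0.0246 and −0.25 for DUOXA1 and −0.00992 and −0.11 for RAC2. The called A549 changes of GPX4 (0.46), P4HB (0.42) and ELMO2 (0.31) were at −0.17, −0.15 and −0.25 in log2(TPM + 1). In MDA-MB-231 the changes of CAT (0.17) and TRIO (0.14), neither called, were at −0.25 and −0.27 in log2(TPM + 1). The whole table moved on these scales, with medians of −0.38 and −0.50 in A549 and −0.25 and −0.36 in MDA-MB-231. Without A549 3D replicate 3, the deepest library, CYBB was at −0.26, DUOXA1 at −3.98 and RAC2 at −2.57 in A549. Over all fits with 1 library left out, their highest values were 0.54, 0.82 and 1.29. The cause was not tested. Of the members' recomputed values, 647 moved by less than their spread and 63 by more. A further 2, of the called RAC1 change in MDA-MB-231, turned direction and were counted apart.

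With the replicate block, 9668 genes were called in A549 3D against 2D (10046 without it), 10079 in MDA-MB-231 (10356 without it) and 8273 for the difference (8581 without it). Libraries with the same number did not deviate together (correlations −0.14 to 0.10), so the numbers were not taken to pair the samples. Over the 3D against 2D contrasts and their difference, for the 9 genes and the named genes, the block ended the call of HVCN1 in MDA-MB-231 (edgeR adjusted p = 0.0534) and of the differences of HVCN1 and AQP5 between the lines' changes, and took NOX1 in MDA-MB-231, at 0 reads in 3D, past the threshold. Depth limits NOX4, DUOX2, NOXO1 and DUOX1, with at most 26 reads in any library, and NOX5 in A549.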
